A study of Homo sapiens with 4 samples.

Results

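Cohesin, the factors that load, release and acetylate it, and its protector sororin were described in NGP cells that had received Nutlin-3 or ethanol. The set held 10 genes, picked by name from the 25693 human genes of the table: SMC1A, SMC3, RAD21, STAG1, STAG2, NIPBL, WAPL, ESCO1, ESCO2 and CDCA5. Each name matched 1 gene identifier, and all 10 genes passed the filter on low counts along with 14830 genes in all. They were selected on their function and on the difference in ESCO2 between the treatments, which was already known from these same counts. That contrast is therefore given as a description.

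NGP is an established human neuroblastoma line with amplified MYCN. All cells were synchronised by withdrawing serum and then kept for 24 h with Nutlin-3, a small molecule that stops MDM2 from binding p53, or with ethanol, its solvent. RNA of single cells was captured on the ddSeq device and sequenced from the 3′ end of polyadenylated transcripts. Of the 4 libraries, 2 belonged to each treatment, with spike-in RNA diluted 1000-fold in one and 10000-fold in the other. No source used here says whether the libraries came from separate cultures.

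The table had 250 columns per treatment, and a column's name gave its treatment but not its library. Each treatment was thus 1 pool, no difference below has a replicate check, and no test between treatments was run. The pools held 1342134 human counts in ethanol and 1301232 in Nutlin-3. In each treatment 113 large columns, with more than 4000 counts, carried 88.7% of the ethanol and 89.2% of the Nutlin-3 counts, and 137 small columns carried the rest. The large columns had a median of 10738 human counts in ethanol and 10617 in Nutlin-3. Of the 250 column names, 219 occurred in both treatments, among them those of all 113 large columns. Whether each column is 1 cell could not be settled from the table, so shares below are of columns, not of cells. MDM2 and CDKN1A, 2 targets of p53, were higher in the Nutlin-3 pool, at 504 against 315 and 188 against 70 counts. All 8 adrenergic neuroblastoma markers looked for were present, from DBH with 104 counts in ethanol to MYCN with 1140. Of 6 mesenchymal markers 4 could be analysed: VIM gave 276 ethanol and 277 Nutlin-3 counts, FN1 37 and 19, COL1A1 29 and 47, and PRRX1 2 in each pool.

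Cohesin is a ring of SMC1, SMC3 and RAD21 with a STAG subunit, and it holds the copies of a chromosome together from their replication until they part in mitosis. NIPBL, with its partner MAU2, loads the ring onto DNA, and WAPL opens it again. ESCO1 and ESCO2 acetylate SMC3, and sororin, the product of CDCA5, shields the acetylated ring from WAPL. ESCO2 and CDCA5 are known as genes of dividing cells, while the ring itself also folds chromosomes throughout interphase.

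ESCO2 was the gene of the set that differed most between the pools, at 79.7 CPM (counts scaled to a common pool total) in ethanol and 36.9 CPM in Nutlin-3. CDCA5 followed with 99.8 and 73.8 CPM. The 5 ring genes were each slightly lower in Nutlin-3, and NIPBL, WAPL and ESCO1 were slightly higher. For all 8 the counting interval included 0. Differences are log2 fold changes, positive where Nutlin-3 was higher, with 0.5 counts added to each sum. Their 95% intervals are exact binomial intervals that cover counting error only and take counts as independent molecules.

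A log2 fold change at or below -0.5 was found for 1 of the 10 genes, beside 7.51% of all genes that passed the filter. Among the 8187 genes whose summed count over both pools lay within the range of the set, 132 to 357, the share was 1.05%. None (0) of the 10 reached 0.5, beside 9.47% and 1.00%. The counting interval lay wholly below 0 for 2 of the 10, beside 3.59% and 1.62%. The median of the 10 was -0.17, with 7 genes below 0 and 3 above, and the median of all genes passing the filter was -0.00167. Because the choice of the genes used this contrast, nothing is read from these counts.

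Most counts of these genes were single counts. In the large columns 91.9% of the nonzero values of all genes (ethanol) and 92.5% (Nutlin-3) were single counts. SMC3 reached 4 counts in a column, the highest value of the set, and in the small columns no gene of the set had more than 1. For SMC1A, NIPBL and WAPL the variance over the ethanol large columns was 0.103, 0.0714 and 0.0619 of the mean, where independent molecules would give about 1. A summed count of these genes is therefore close to the number of columns in which the gene was seen. A gene seen in nearly every large column of both pools can show a difference there only through its few counts above 1. Such genes, SMC1A among them, lie in the range of 132 to 357 counts used for comparison. The spread and the shares given for that range may be narrowed by this, which was not tested.

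**Figure D1:**
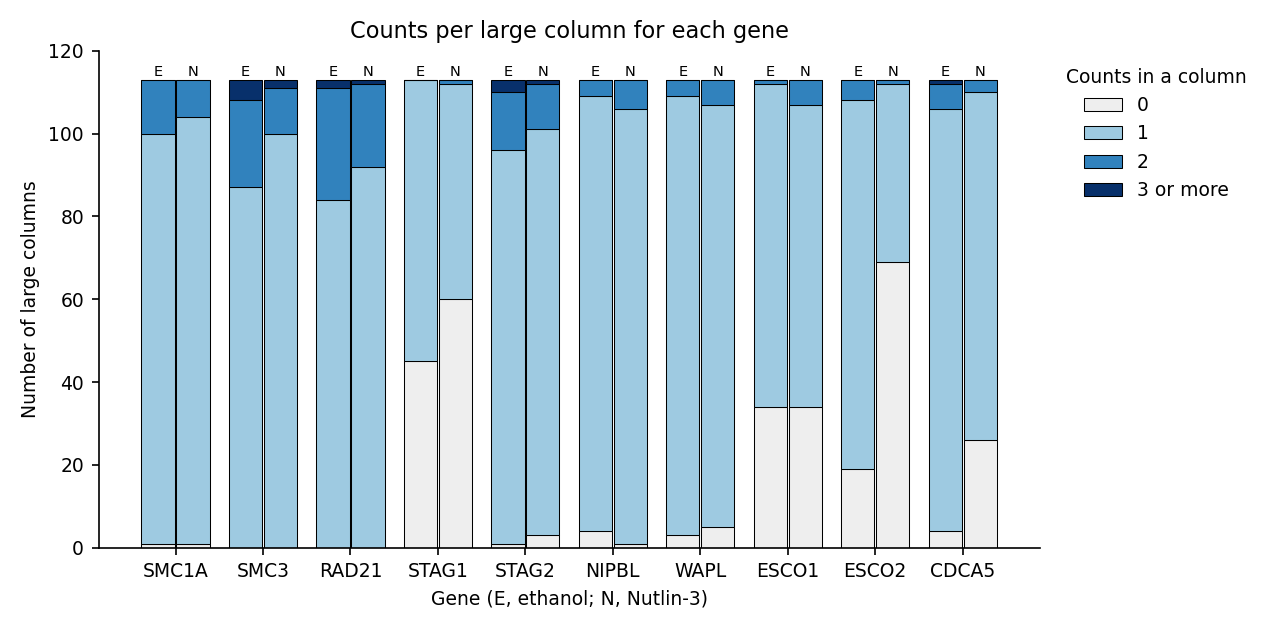
Stacked bars give, for each gene, how many of the 113 large columns of a treatment had 0, 1, 2 or at least 3 counts (vertical axis, number of columns, from 0), with ethanol (E) to the left of Nutlin-3 (N). Columns with 0 counts numbered 19 in ethanol and 69 in Nutlin-3 for ESCO2, 4 and 26 for CDCA5, and 34 in both treatments for ESCO1.

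SMC1A and SMC3 code for the coiled-coil arms of the ring. SMC1A (X, 53374149 to 53422728 in GRCh38) gave 151 ethanol and 138 Nutlin-3 counts, a log2 fold change of -0.08 (-0.43 to 0.26). SMC3 (chromosome 10, 110567691 to 110604636) had 191 and 161 counts, or -0.20 (-0.51 to 0.11). SMC1A was seen in 112 of the 113 large columns of either treatment and SMC3 in all 113, so the large columns left almost no room for a difference in either gene. In the small columns SMC1A was seen in 26 of 137 in ethanol and 17 of 137 in Nutlin-3, and SMC3 in 46 and 33.

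RAD21, the subunit that closes the ring and is cut by separase at anaphase, gave 190 ethanol and 167 Nutlin-3 counts, a log2 fold change of -0.14 (-0.45 to 0.17). It too was present in all 113 large columns of each pool. UTP23, a protein-coding gene on the opposite strand that overlaps RAD21 in the annotation, had 121 and 112 counts, and RAD21-AS1 had 4 and 5. No source used here says how strand was handled in counting.

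STAG1 and STAG2 code for alternative subunits of the ring, and a cohesin complex holds one or the other. STAG2 (X, 123960212 to 124422664) gave 168 ethanol and 142 Nutlin-3 counts, a log2 fold change of -0.20 (-0.53 to 0.13). STAG1 (chromosome 3, 136336233 to 136752403) was the ring gene with the fewest counts, at 74 and 58, or -0.30 (-0.83 to 0.21). STAG2 was seen in 112 and 110 of the large columns and STAG1 in 68 and 53. Counts of 3′ ends are not divided by transcript length and lay near 1 per column, so the order of the 2 genes is not a molar ratio. STAG2 made up 69.4% of their joint counts in ethanol (63.2 to 75.2) and 71.0% in Nutlin-3 (64.2 to 77.2). Every large column with STAG1 also had STAG2, 68 columns in ethanol and 53 in Nutlin-3. Because STAG2 was seen in nearly every large column, this overlap does not describe a link between the 2 genes.

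The 5 ring genes together gave 774 ethanol and 666 Nutlin-3 counts, a log2 fold change of -0.17 (-0.32 to -0.02). All 5 were below 0, as were 50.4% of all genes passing the filter, and 0 of 5 had a counting interval clear of 0. Their median was -0.06 in the large columns and -0.40 in the small ones. STAG2 moved most with the class of columns. Its value was -0.06 (-0.43 to 0.30) in the large columns, from 132 and 123 counts, and -0.77 (-1.67 to 0.05) in the small, from 36 and 19.

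NIPBL and WAPL, which put cohesin on DNA and take it off, were close to equal in both pools. NIPBL (chromosome 5, 36876759 to 37066413) had 129 counts in each, a log2 fold change of 0.05 (-0.32 to 0.41). WAPL (chromosome 10, 86435256 to 86521815) had 126 in ethanol and 127 in Nutlin-3, or 0.06 (-0.31 to 0.42). These intervals reach up to about 0.4 in either direction and do not show that the levels were the same. They take counts as independent molecules, while both genes lay near 1 count per large column. They therefore do not bound the change in RNA. NIPBL was seen in 109 and 112 large columns and WAPL in 110 and 108. MAU2, the partner of NIPBL, had 127 counts in each pool. PDS5A and PDS5B, which bind cohesin and work with both WAPL and sororin, had log2 fold changes of -0.06 (-0.40 to 0.28) and -0.14 (-0.51 to 0.23).

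**Figure D2:**
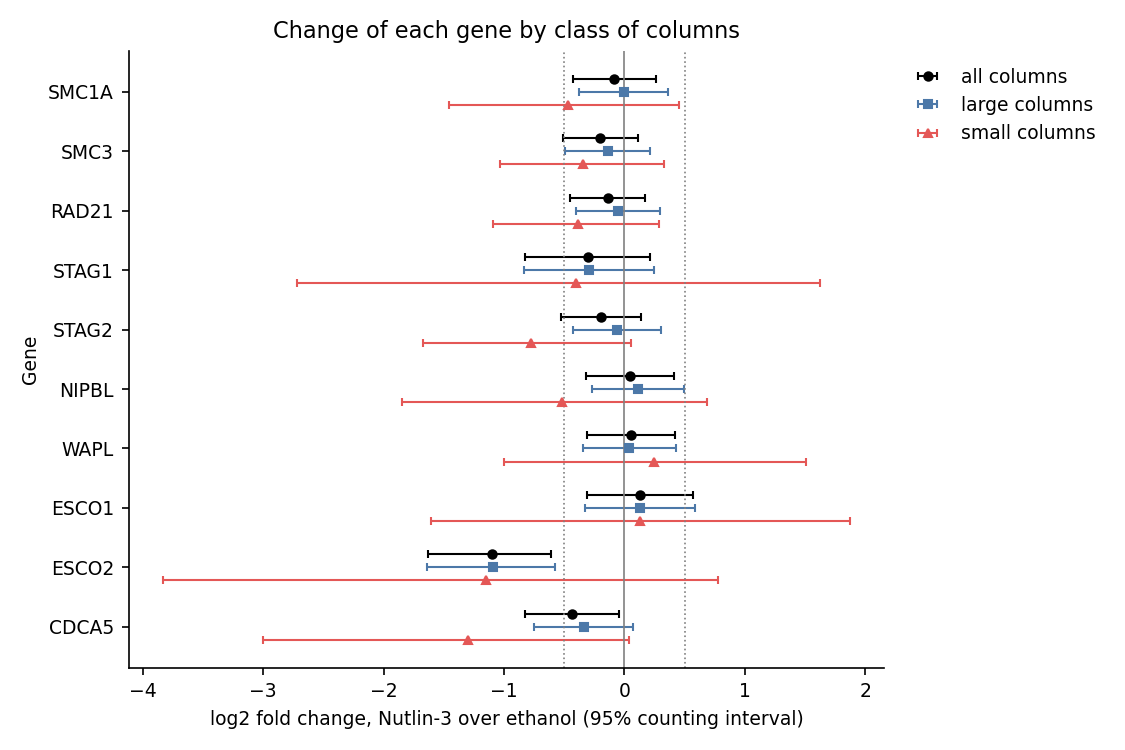
Points give each gene's log2 fold change (horizontal axis, negative where Nutlin-3 was lower) in all columns, in the large and in the small columns, bars are 95% counting intervals, and dotted lines mark -0.5 and 0.5. ESCO2 lies at -1.10 in all columns and at -1.09 and -1.15 in the large and small ones, while the intervals of the small columns are wide for every gene.

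ESCO1 and ESCO2, the acetyltransferases that act on SMC3, differed from each other in their values. ESCO1 (chromosome 18, 21529281 to 21600884) gave 87 ethanol and 92 Nutlin-3 counts, a log2 fold change of 0.13 (-0.31 to 0.57). ESCO2 (chromosome 8, 27771949 to 27812640) had 107 (95% Poisson interval 87.7 to 129) and 48 (35.4 to 63.6), or -1.10 (-1.63 to -0.61). Of the 8187 genes in the same range of counts, 1 had a lower value than ESCO2. The 5th and 95th percentiles of these genes were -0.29 and 0.29. Genes near 1 count per large column, such as SMC1A, lie in this range and may narrow its spread, which was not tested. Among all 14830 genes passing the filter, 228 had a lower value, and these percentiles were -0.64 and 0.79. The set was chosen with the ESCO2 difference known, so nothing is read from its rank. ESCO2 was 55.2% of the joint counts of both acetyltransferases in ethanol (47.9 to 62.3) and 34.3% in Nutlin-3 (26.5 to 42.8).

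The lower ESCO2 count in Nutlin-3 came from fewer columns, since only 5 ethanol and 1 Nutlin-3 large columns had 2 counts and none had more. ESCO2 was seen in 94 of 113 large columns in ethanol, 83.2% with an exact 95% interval of 75.0 to 89.6, and in 44 of 113 in Nutlin-3, 38.9% (29.9 to 48.6). ESCO1 was seen in 79 of 113 in each pool, 69.9% (60.6 to 78.2). The difference for ESCO2 was -44.25 percentage points, beside a median of -0.885 over all genes passing the filter, of which 1 had a lower value. These shares restate the difference in counts that was known when the set was chosen, so this place among all genes is description only. In the small columns ESCO2 was seen in 8 of 137 and 3 of 137. The log2 fold change was -1.09 (-1.64 to -0.58) in the large columns, and in the small ones it was -1.15 with an interval from -3.83 to 0.78.

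Large columns with ESCO2 were deeper than those without it in both pools. Ethanol large columns with ESCO2 had a median of 10850 human counts and those without it 9821, and in Nutlin-3 the medians were 10880 and 10520. To set depth equal, each column was thinned to 700 counts, which left out 56 ethanol and 63 Nutlin-3 columns. ESCO2 was then seen in 7 of 194 ethanol columns, 3.61% (1.46 to 7.29), and in 5 of 187 Nutlin-3 columns, 2.67% (0.874 to 6.13). These few columns leave wide intervals. The share expected over all possible thinnings was 4.74% and 2.48%, and in the large columns 5.85% and 2.71%. Without thinning it was 40.8% of 250 and 18.8% of 250, at median depths of 2287 and 2010.5 counts. With 1 cell line there were no cells known to lack ESCO2, and the level of free RNA was not measured.

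Pairs of genes were counted in the same large column. These numbers follow in part from how often each gene was seen, and no link between genes is read from them. ESCO2 occurred without ESCO1 in 25 ethanol and 14 Nutlin-3 columns, and ESCO1 without ESCO2 in 10 and 49. Both were present in 69 and 30, and both absent in 9 and 20. Across the 113 names of large columns, all shared by both treatments, ESCO2 was seen under 59 in ethanol alone and under 9 in Nutlin-3 alone, while ESCO1 gave 22 and 22. CDCA5 gave 23 and 1, and STAG1 33 and 18. A shared name does not mean a shared cell.

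**Figure D3:**
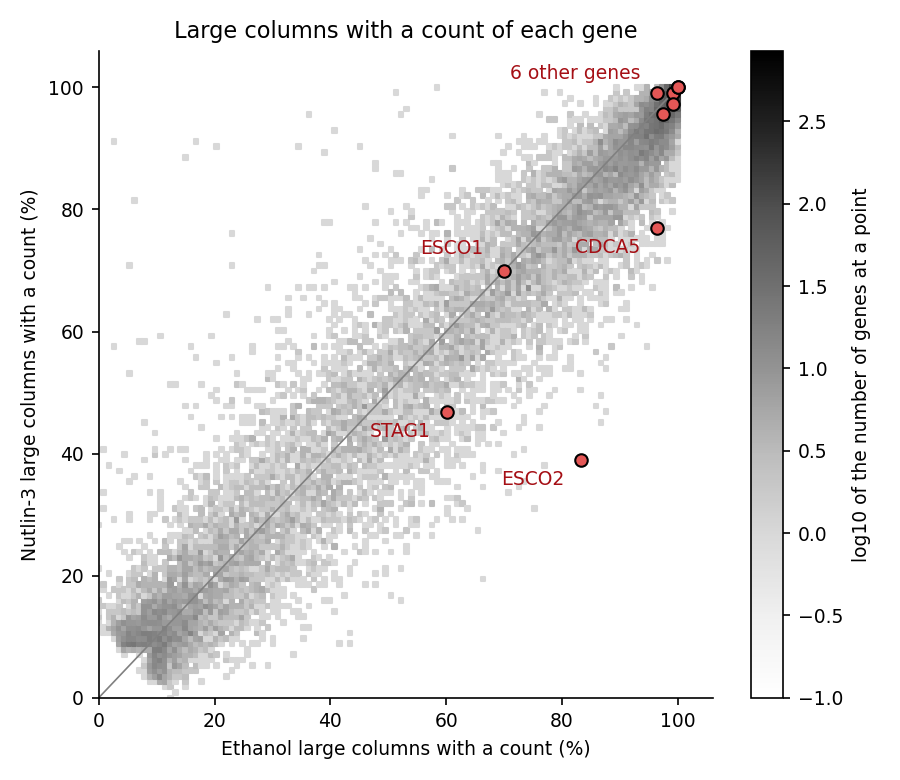
Each point is the percentage of the 113 large columns with a count in ethanol (horizontal axis) and in Nutlin-3 (vertical axis); grey squares are all 14830 genes passing the filter, shaded by the log10 number of genes at a point, red circles are the 10 genes, and the line marks equal shares. ESCO2 lies far below the line at 83.2% and 38.9%, CDCA5 lies at 96.5% and 77.0%, ESCO1 is on the line, and 6 of the genes sit together above 95% in both treatments.

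Other genes at the ESCO2 locus were looked at because the strand of counting is unknown. PBK, a mitotic kinase gene on the opposite strand that overlaps ESCO2 in the annotation, gave 171 ethanol and 129 Nutlin-3 counts. CCDC25, likewise on the opposite strand, had 113 and 116. Reads of overlapping genes cannot be told apart without strand, and their part in the ESCO2 counts was not tested.

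Among 8819 genes with at least 50 CPM on average the 5 nearest to ESCO2 were named by the distance between their pairs of log2 fold changes in the large and the small columns. The likeness rests on 4 sums per gene and on few counts in the small columns. The genes were INSIG1-DT at a distance of 0.286, RANBP1P1 at 0.309, PARPBP at 0.413, ERC1 at 0.453 and CLSPN at 0.461. CLSPN codes for claspin, a checkpoint mediator at replication forks, and gave 110 ethanol and 67 Nutlin-3 counts. PARPBP, a gene linked to restraint of homologous recombination, had 119 and 70. RANBP1P1 carries the name of a pseudogene of RANBP1, so its counts may include reads of other copies. INSIG1-DT had 92 and 49 counts and ERC1 85 and 52.

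CDCA5, the gene of sororin, had 134 counts in ethanol (112 to 159) and 96 in Nutlin-3 (77.8 to 117), and its log2 fold change was -0.43 (-0.83 to -0.05). It was seen in 109 of 113 large columns in ethanol, 96.5% (91.2 to 99.0), and in 87 of 113 in Nutlin-3, 77.0% (68.1 to 84.4). These intervals cover counting error within 1 pool each. In the large columns alone the log2 fold change was -0.34 (-0.75 to 0.07), so the counting interval there included 0. In the small columns CDCA5 was seen in 17 and 6 of 137, or -1.30 (-3.001 to 0.04). ESCO2 and CDCA5 were both seen in 92 ethanol and 31 Nutlin-3 large columns, and CDCA5 without ESCO2 in 17 and 56.

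Promoter sequences were compared because CDCA5 differed between the pools while NIPBL and SMC3 gave values within counting error. RefSeq (GRCh38.p14) promoters were found for 7 of the 10 genes, with 10 entries; ESCO1, ESCO2 and RAD21 had none and were not searched. The 250 bases before each start were searched on both strands. The CHR element, bound by the MuvB complex of cell cycle genes, was searched as TTTGAA or TTCGAA, and the E2F site as TTTCCCGC, TTTGGCGC or TTTCGCGC. The CCAAT box was searched by its own letters. The 3 kinds of motif do not overlap in the sequences printed. Capitals mark matches, and the sequences run 5′ to 3′ on the gene's strand. CDCA5 lies on the minus strand at chr11:65084041-65084290, NIPBL on the plus strand at chr5:36876519-36876768 and SMC3 on the plus strand at chr10:110567445-110567694.
CDCA5: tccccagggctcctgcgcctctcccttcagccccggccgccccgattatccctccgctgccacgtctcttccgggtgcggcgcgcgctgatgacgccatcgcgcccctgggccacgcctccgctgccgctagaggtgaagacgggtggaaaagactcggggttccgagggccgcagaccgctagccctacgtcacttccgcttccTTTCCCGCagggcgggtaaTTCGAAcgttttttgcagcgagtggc
NIPBL: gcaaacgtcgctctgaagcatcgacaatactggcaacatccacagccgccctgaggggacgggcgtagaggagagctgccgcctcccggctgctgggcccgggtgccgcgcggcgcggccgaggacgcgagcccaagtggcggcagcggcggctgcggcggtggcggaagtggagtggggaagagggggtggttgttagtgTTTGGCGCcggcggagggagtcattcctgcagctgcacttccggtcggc
SMC3: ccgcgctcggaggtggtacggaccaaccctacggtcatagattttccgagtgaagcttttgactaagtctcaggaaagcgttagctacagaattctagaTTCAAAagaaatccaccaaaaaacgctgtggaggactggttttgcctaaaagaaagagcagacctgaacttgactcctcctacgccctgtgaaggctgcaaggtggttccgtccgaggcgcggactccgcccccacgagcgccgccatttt

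CDCA5 was the only one of the 7 genes with both an E2F match, at positions -45 to -38 before its start, and a CHR match, at -26 to -21. NIPBL had an E2F match at -49 to -42 without a CHR match, and SMC3 a CHR match on the other strand at -151 to -146 without an E2F match. Of all 35116 RefSeq promoters, 14.3% held a CHR match, 2.32% an E2F match, 32.0% a CCAAT match and 0.242% both CHR and E2F matches. STAG1 and 1 of the 3 STAG2 entries also had an E2F match, as had 1 of the 2 entries of SMC1A. WAPL had 2 CCAAT matches only. A match describes letters in this window and was not related to any binding in these data.

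The other genes of the pathway were taken from a list ordered by role. Of its 26 further genes 24 were analysed here, RAD21L1 and SMC1B being not analysed, and all 24 passed the filter. The median over these genes was -0.14, with 19 below 0 and 5 above, beside 50.4% of all genes passing the filter below 0. The counting interval lay below 0 for 2 of the 24, SGO1 and DSCC1, beside 3.59% of all genes and 1.62% of those in the range of counts of the set, and above 0 for 0. The only one past -0.5 was STAG3, a meiotic subunit, at -0.62 (-2.13 to 0.73) from 13 and 8 counts, and 0 exceeded 0.5. Of all genes passing the filter, 7.51% lay at or below -0.5 and 9.47% at or above 0.5. In the range of counts of the set these shares were 1.05% and 1.00%.

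Besides sororin, the shugoshins protect cohesin at centromeres. SGO1 gave 135 ethanol and 99 Nutlin-3 counts, a log2 fold change of -0.40 (-0.79 to -0.02), beside -0.43 for CDCA5. SGO2 had 134 and 118, or -0.14 (-0.51 to 0.23). HDAC8, the deacetylase that removes the ESCO mark from SMC3, had 82 and 76 counts, or -0.06 (-0.53 to 0.40). For the pair that ends cohesion both intervals included 0. ESPL1, the gene of separase, gave -0.15 (-0.52 to 0.22), and PTTG1, that of its inhibitor securin, gave -0.29 (-0.58 to 0.00427) from 224 and 178 counts.

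Of 7 genes that act at the replication fork and help establish cohesion, 6 had values below 0, beside 50.4% of all genes passing the filter, and the median was -0.35. The counting interval lay below 0 for 1 of them. This was DSCC1, a subunit of a clamp loader, at -0.48 (-0.89 to -0.08), from 128 and 89 counts. TIPIN gave -0.44 (-0.93 to 0.03), WDHD1 -0.36 (-0.78 to 0.06) and the helicase gene DDX11 -0.35 (-0.78 to 0.07). CHTF8, a partner of DSCC1 in the same clamp loader, was above 0 at 0.10 (-0.30 to 0.50). The related SMC5/6 complex had a median of -0.08 over 6 genes, with 4 below 0 and 2 above. CTCF, the factor at which cohesin halts, had 128 and 117 counts, or -0.08 (-0.46 to 0.29). REC8, the meiotic counterpart of RAD21, had 150 and 149 counts.

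**Figure D4:**
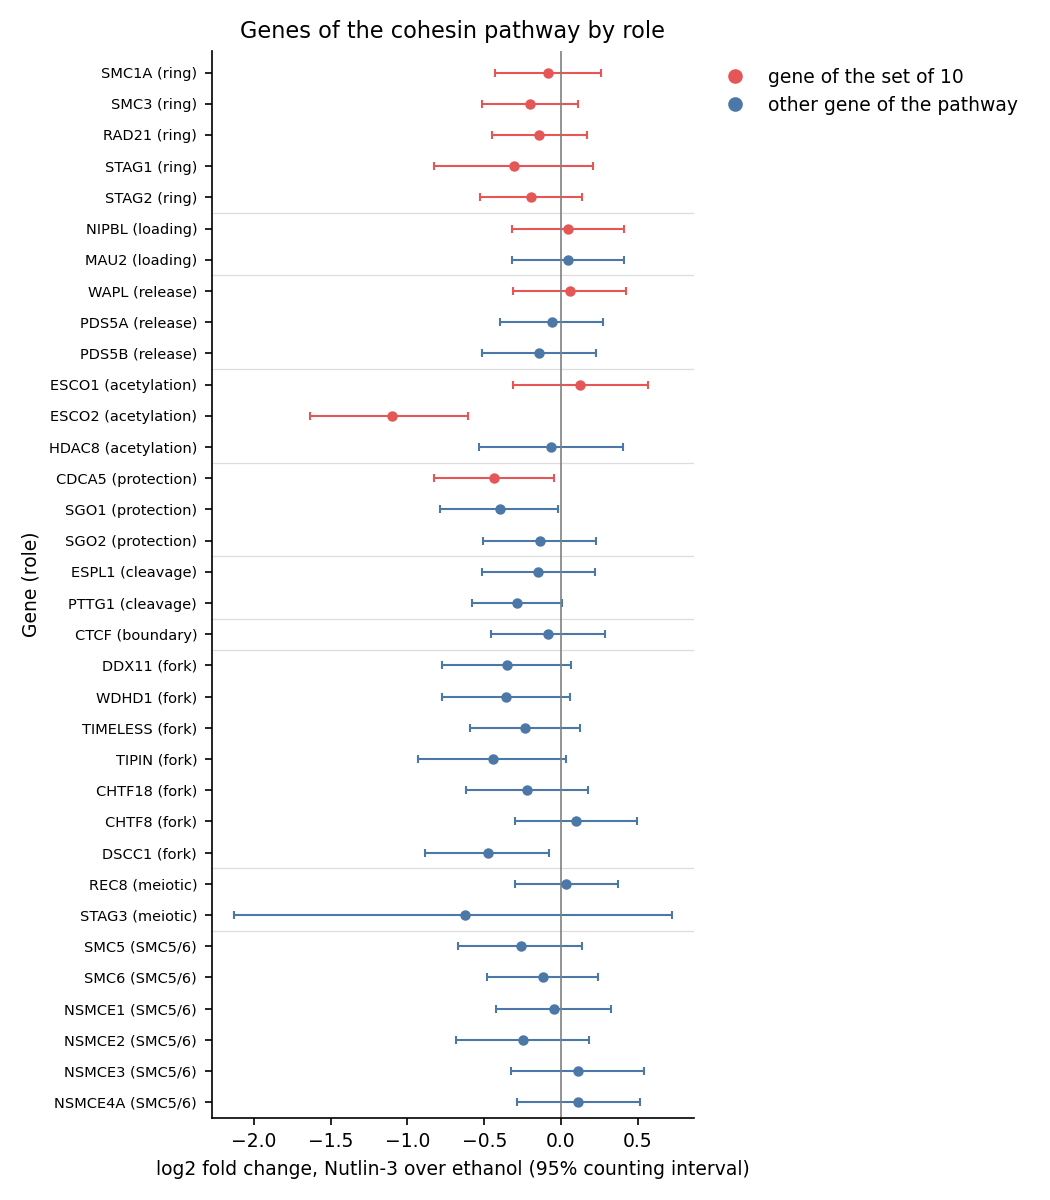
Points give log2 fold changes (horizontal axis, negative where Nutlin-3 was lower) for the genes of the pathway, grouped by role, with 95% counting intervals as bars; the 10 genes of the set and the others are in different colours. ESCO2 at -1.10 stands to the left of all others, DSCC1, CDCA5 and SGO1 have intervals just below 0, and the ring, loading and release genes lie near 0.

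Markers of dividing cells mostly had values below 0, as had ESCO2 and CDCA5. Of 43 S phase genes 42 passed the filter, 41 of them below 0, with a median of -0.28. Their medians were -0.18 in the large columns and -0.74 in the small. For 54 G2/M genes the median was -0.25, with 53 below 0, and the medians were -0.17 and -0.53. Beside these, 50.4% of all genes passing the filter were below 0. Counting intervals lay wholly below 0 for 12 S phase and 16 G2/M genes, beside 3.59% of all genes and 1.62% of those in the range of counts of the set. TIPIN and DSCC1 belong to the S phase list and CTCF to the G2/M list. In summed counts fewer cells in S phase and less ESCO2 RNA per cell cannot be told apart, and the part of the cell cycle in the ESCO2 and CDCA5 values was not tested.

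Counting how many of the 10 genes a large column held gave a median of 9 in ethanol and 8 in Nutlin-3. All 10 were present in 42 of 113 ethanol columns (37.2%) and in 13 of 113 Nutlin-3 columns (11.5%). At least 9 were present in 86 and 53. ESCO2, whose difference was known when the set was chosen, was seen in 94 and 44 large columns, which limits the number with all 10. Nothing about the set as a whole is read from these numbers. The lowest column held 3 in ethanol and 5 in Nutlin-3. Small columns had a median of 1 of the 10 in both pools, with none in 43 ethanol and 58 Nutlin-3 columns, and small columns had medians of 868 and 828 human counts.

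The 31 columns per treatment whose names occurred in 1 treatment alone gave 0 to 8 counts per gene of the set. ESCO2 and CDCA5 each had 1 count there in ethanol and 2 in Nutlin-3, ESCO1 1 and 0, and STAG1 0 in both. The columns with shared names hold 98.5% of the ethanol and 98.2% of the Nutlin-3 counts, and all large columns are among them.

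ERCC spike-in counts were 2989 in ethanol and 4007 in Nutlin-3, and scaling to them in place of human counts moved the median of all genes to -0.47. On that scale ESCO1 was at -0.34, WAPL at -0.41 and NIPBL at -0.42, below 0 like the other 7 genes. This scaling shifts all genes alike, so the sign of these 3 depends on it and their place among all genes does not. The mixture of the 2 spike-in dilutions in each pool is unknown.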

How the data were processed

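Single-cell 3′ libraries of polyadenylated RNA were made on the ddSeq device, per the labels' protocols. The authors deposited 1 table of whole-number counts for 25693 human genes and 62 ERCC species in 500 columns, with no normalization. Aligner, molecular tag handling, cell filter, strand and build: not given in the sources used here. Names matched a symbol for 25422 genes, and positions come from GENCODE 29 (GRCh38), which need not be the authors' build.

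The ending of a column's name (treated, untreated) was read as Nutlin-3 or ethanol; 0 columns lacked a treatment. Counts were summed per treatment without ERCC species and scaled by TMM in edgeR 4.0.16 (R 4.3.3). The edgeR filter with a minimum of 10 counts kept 14830 genes. With 1 pool per treatment the planned test on 4 libraries could not be run. Intervals were computed with scipy 1.17.1. They take counts as independent molecules, whereas the variance of the 10 genes over large columns was below the mean. No doublet caller was run on this 1 line. All 10 genes were named whatever their values, and other list genes where past a log2 fold change of 0.5 in size, completing a complex, or, chosen after their values were seen, as examples. The genes, lists and the split at 4000 counts were chosen with earlier results of these data known. Alternatives included DESeq2 1.42.0 size factors.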

Additional observations from a re-analysis of the deposited data

How the results depend on the processing

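No paired analysis was possible because the columns do not tell the 2 libraries of a treatment apart. For the same reason tests by edgeR or DESeq2, the replicate block and leaving out a library were not run. The median log2 fold change of the 10 genes (-0.17 as reported) was between -0.19 and -0.06 with DESeq2 size factors, no filter, 2 counts added, equal depth, large columns, shared names or counts limited to 1, and ESCO2 alone stayed at or below -0.5.

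With ERCC counts as library size the median was -0.637, with 7 genes at or below -0.5, and that of the other pathway genes -0.612, with 19, beside 44.2% of all genes passing the filter. Small columns alone gave a median of -0.432 with 4 genes at or below -0.5. For the other pathway genes the median was -0.313 with 6. Beside these stood 27.9% of the 13401 genes passing the filter with counts there. All genes had a median of 0.13 there, and only 7 of the 10 passed a filter on these columns. Without columns named in both treatments the median was -0.22, the same as the -0.22 of all genes there. At or below -0.5 were 3 of 9 and 10 of 21 genes, on a few counts each. Beside these stood 33.4% of the 8903 genes passing the filter with counts there. None (0) of the 10 passed a filter on these columns. ESCO2 and CDCA5 both reversed to 0.52 there, from 1 and 2 counts. The cause was not tested.

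Without thinning, the share of columns with ESCO2 was 40.8% (ethanol) and 18.8% (Nutlin-3). At 350 counts it was 3.32% (8 of 241) and 0.866% (2 of 231). Without columns named in both treatments the thinned shares were 0% of 10 ethanol and 15.4% of 13 Nutlin-3 columns, where a count of 0 sets no useful limit.

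A log2 ratio chosen after the data were seen used the share of large columns without a count. SMC3 and RAD21, seen in all large columns, had no such ratio. It was -1.85 for ESCO2, -1.19 for CDCA5 and 0.50 for NIPBL. STAG1 was at -0.54, STAG2 at -0.38 and WAPL at -0.22. For SMC1A and ESCO1 the ratio was 0. It equals a fold change only if molecules fall on columns independently, and the variance over large columns was below the mean.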
